A study of Mus musculus with 12 samples.

Results

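Among 12 RNA sequencing libraries of cells grown out of mouse paws, 5 were dominated by transcripts of pigment cells, and 4 of these are compared here, 2 from mice given a BET inhibitor and 2 from mice given vehicle. The 5 libraries were chosen by the level of Tyrp1, which encodes a melanin synthesis enzyme, as those with a regularized log2 (rlog) value above 12. The lowest of the 5 stood at 17.44 for Tyrp1 (the highest at 18.62). Outside the set the values ran from 3.98 to 6.10, so no library was near the threshold. The treated side holds the libraries labelled in vivo 2 and 3, and the untreated side those labelled non-primed 1 and 2. The fifth library, labelled non-primed 3, had levels of BET-responsive genes like those of the treated side. It is given beside both sides and belongs to neither. Tyrp1 and the profile of non-primed 3 chose the members, so values that compare 2 with 2 libraries are a description and carry no test. The test reported is that of the libraries as labelled, 2 treated against all 3 non-primed.

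The mice were BALB/c, an albino inbred strain, and all paws received monosodium urate (MSU) crystals, the crystals of gout. Right paws, called non-primed, had crystals on day 9 alone. Left paws, called primed, had them on day 0 as well, and RNA was taken on day 18. The treated libraries came from primed left paws of mice that received the BET inhibitor I-BET151 daily (20 mg/kg), from 1 day ahead of the first crystals. The non-primed libraries came from right paws of mice injected without the inhibitor. Treatment, priming and paw side therefore differ together between the sides and cannot be told apart. Used beside them were 3 libraries of primed paws of vehicle-treated mice and 3 of primed-paw cells that met the drug only in culture (1 µM, 24 h). Cells were pooled over 2 to 3 paws and grown for 5 passages, and whether the libraries of a group stem from separate animals is not stated. P-values then measure the spread between these pooled cultures.

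BET proteins bind acetylated histones through paired bromodomains and help recruit P-TEFb, the kinase that releases paused RNA polymerase II. I-BET151 occupies the bromodomains. HEXIM1 holds P-TEFb inactive, and the rise of its transcript is a common reporter of BET inhibition. In pigment cells the transcription factor MITF, with SOX10, drives the melanin synthesis enzymes and many melanosome genes through a motif called the M-box.

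Promoter sequences of 5 genes discussed below are shown here, because they carry the motifs through which the pigment and interferon programmes are known to be driven. They are the 250 bases before the annotated start, 5′ to 3′ on the gene's strand, from RefSeq (GRCm38.p6), with motif matches in capitals. The M-box was searched as TCATGTG and the interferon-stimulated response element as GAAA, any 2 bases and GAAA, each on both strands.
Tyr (chr7:87493513-87493762, - strand): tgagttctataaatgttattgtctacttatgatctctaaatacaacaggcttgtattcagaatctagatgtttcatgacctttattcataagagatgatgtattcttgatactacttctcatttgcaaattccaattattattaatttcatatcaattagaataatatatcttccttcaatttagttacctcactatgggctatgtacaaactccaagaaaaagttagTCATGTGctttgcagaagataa
Tyrp1 (chr4:80833963-80834212, + strand): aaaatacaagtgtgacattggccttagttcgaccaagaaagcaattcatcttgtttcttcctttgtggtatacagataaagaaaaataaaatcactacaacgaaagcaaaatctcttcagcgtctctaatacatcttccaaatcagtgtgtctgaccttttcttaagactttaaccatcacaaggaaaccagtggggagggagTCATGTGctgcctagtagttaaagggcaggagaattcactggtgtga
Dct (chr14:118052247-118052496, - strand): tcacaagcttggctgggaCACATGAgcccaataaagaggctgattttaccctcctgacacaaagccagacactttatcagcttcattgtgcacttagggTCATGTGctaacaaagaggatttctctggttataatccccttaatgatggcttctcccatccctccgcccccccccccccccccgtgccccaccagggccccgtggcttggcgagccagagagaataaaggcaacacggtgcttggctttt
Rsad2 (chr12:26456453-26456702, - strand): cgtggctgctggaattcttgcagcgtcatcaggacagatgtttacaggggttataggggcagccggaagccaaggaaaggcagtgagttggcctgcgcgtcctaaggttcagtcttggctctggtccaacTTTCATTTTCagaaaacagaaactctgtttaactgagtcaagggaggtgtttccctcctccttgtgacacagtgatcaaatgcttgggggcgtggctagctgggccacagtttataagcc
Ifi203 (chr1:173942493-173942742, - strand): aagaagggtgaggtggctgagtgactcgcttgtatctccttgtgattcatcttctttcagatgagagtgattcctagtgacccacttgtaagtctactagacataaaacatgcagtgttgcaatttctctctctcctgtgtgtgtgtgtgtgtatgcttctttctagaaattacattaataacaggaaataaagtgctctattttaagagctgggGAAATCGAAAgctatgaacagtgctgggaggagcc
In Tyr, the tyrosinase gene, the match began 22 bases before the start, and in Tyrp1 47 bases before it. The Tyrp1 gene range given below is from another annotation and starts at 80834123, so the Tyrp1 match lies inside that range. Dct, which encodes dopachrome tautomerase, held 2 matches. Rsad2, which encodes the antiviral enzyme viperin, and Ifi203, a DNA sensor family gene, each held 1 match of the interferon element, beginning 120 and 35 bases before the start. Of 27025 genes in the promoter table, 3.72% held an M-box match in this window and 3.46% an interferon element match. Of the 25 tested melanin and melanosome genes 19 were in the table and 6 held an M-box match (31.6%). Of the 62 tested interferon-stimulated genes 48 were in the table and 22 held the interferon element (45.8%). A match is a run of letters and not a shown binding site.

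The labelled tissue, synovial fibroblasts, went against the markers. Over 15 melanocyte markers the mean rlog value was 15.05 and 15.14 in non-primed 1 and 2, 13.80 and 13.74 in in vivo 2 and 3, and 13.85 in non-primed 3, against 6.14 to 6.94 in the other 7 libraries. Tyrp1, by which the libraries were chosen, is among these markers, so their mean is in part set by the choice. Over 12 fibroblast markers it was 10.36 and 11.09 in non-primed 1 and 2, 9.51 and 9.87 in in vivo 2 and 3, and 7.43 in non-primed 3, against 14.30 to 15.19 in the others. Both sides thus held these fibroblast transcripts at a low level, lower in the treated libraries than in non-primed 1 and 2, and lowest in non-primed 3. Markers of synovial lining cells, 6 genes, went the other way, with means of 8.89 and 9.34 in non-primed 1 and 2 and 9.75 and 9.68 in in vivo 2 and 3 (7.66 in non-primed 3), against 12.30 to 13.12 in the other libraries. Of these 6 genes 2 lay at least 1 log2 unit higher in the treated libraries without overlap, and the median difference was 0.69. Macrophage marker means were 4.75 and 5.55 in non-primed 1 and 2, 3.78 and 5.16 in in vivo 2 and 3, and 3.02 in non-primed 3, with Cd163 and Aif1 below 3 in all 5. None of 6 T and NK cell markers reached 3 in any of the 5 libraries. In bulk samples fewer cells of a type and less RNA per cell cannot be told apart. Xist, which coats the silenced X chromosome, was measured at 9.40 and 9.59 in non-primed 1 and 2, 8.60 and 10.16 in in vivo 2 and 3 and 5.02 in non-primed 3, against 13.68 to 14.50 elsewhere. The Y-linked gene Eif2s3y stood at 6.39 in in vivo 2 and at -0.43 or below in the other 11 libraries, so this library stands apart from in vivo 3 in that respect.

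**Figure D1:**
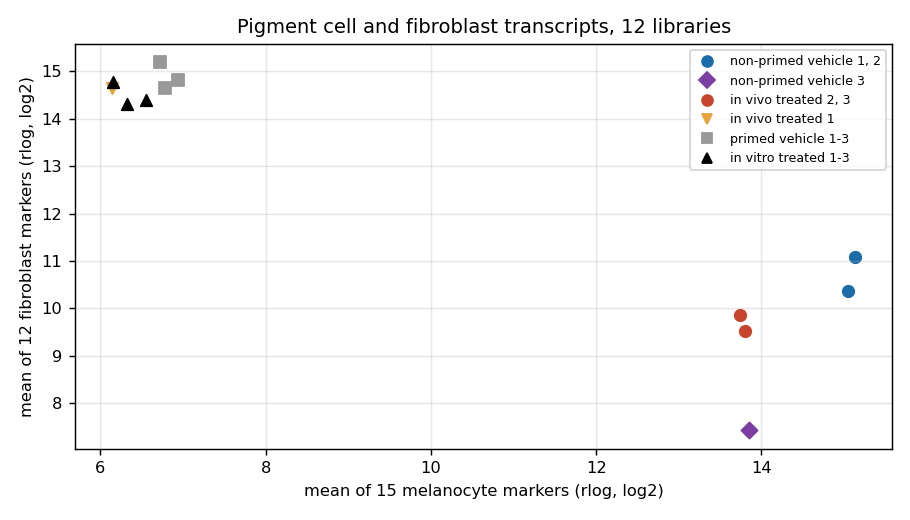
Mean rlog value (log2) of 15 melanocyte markers (x axis) and of 12 fibroblast markers (y axis) in each of the 12 libraries. Each point is a library. The melanocyte markers include Tyrp1, by which the pigment-cell-rich libraries were chosen. The 5 pigment-cell-rich libraries lie at 13.74 to 15.14 on the x axis and at or below 11.09 on the y axis, with non-primed 3 lowest in fibroblast markers at 7.43.

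The library labelled non-primed 3, set aside for this likeness, lay closer to the treated libraries than to the others of its label. The SD over genes of its difference from in vivo 2 and 3 was 0.75 and 0.82, against 1.16 and 1.26 from non-primed 1 and 2. The same SD was 0.51 between non-primed 1 and 2 and 0.32 between in vivo 2 and 3. With the libraries taken as labelled, limma called 0 of 16459 genes (0%), the smallest adjusted p being 0.591, and 269 genes had an unadjusted p under 0.05. Leaving out non-primed 1, non-primed 2, in vivo 2 or in vivo 3 in turn also gave 0 genes. Without non-primed 3 the same fit called 6158 genes, 2767 higher and 3391 lower, a count that rests on leaving out a library for how its values look. Of all tested genes 73.1% did not overlap between the sides of 2 and 2, and 25.9% did not overlap between 2 and 3. Counting only genes that did not overlap and differed by at least 1 log2 unit, 2012 genes (12.2%) lay lower in the treated libraries and 1125 (6.84%) lay higher. The higher share was 35.9% on the deposited scale and 46.7% with the libraries centred on their medians, which moved the median difference of all genes from -0.02 to 0.12. With non-primed 3 on its labelled side, 321 genes (1.95%) lay lower and 560 (3.4%) lay higher. Counts of 2 against 2 for gene lists below are to be read against the shares of 6.84% higher and 12.2% lower. Those with non-primed 3 as labelled are to be read against 3.4% higher and 1.95% lower.

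Most genes known to rise with BET inhibitors lay higher in the treated libraries. Hexim1 (ENSMUSG00000048878, chromosome 11, 103116231 to 103119725, GRCm38, + strand) stood at 12.19 and 12.25 in non-primed 1 and 2 and at 14.23 and 14.18 in in vivo 2 and 3. In non-primed 3 it stood at 14.26, above both treated libraries. The difference of 2 against 2 was 1.99 log2 units, and with non-primed 3 as labelled it was 1.31 ± 0.67 (SE, limma, 2 against 3, unadjusted p = 0.106). Brd2 (ENSMUSG00000024335, chromosome 17, 34112023 to 34122634, - strand), itself a target of the inhibitor, stood at 14.78 and 14.40, then at 16.00 and 16.02, and at 15.98 in non-primed 3. Its difference was 1.42 for 2 against 2 and 0.95 ± 0.47 (SE, limma, 2 against 3, unadjusted p = 0.0973) with all 3. Both sides of 2 were well apart for these genes, and non-primed 3 differed from the treated mean by 0.05 for Hexim1. The 2 genes also rose in culture, Hexim1 by 1.78 ± 0.13 and Brd2 by 2.01 ± 0.11 log2 units (SE, n = 3 per group, limma adjusted p = 0.00171 for each). In vivo 1, the treated library rich in fibroblast transcripts, stood at 13.90 for Hexim1 and 16.99 for Brd2.

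Of the 11 genes in that list, 8 lay higher by the rule of no overlap and 1 log2 unit, 1 lay lower, and the median difference was 2.14, against -0.02 over all genes. With non-primed 3 as labelled the counts were 3 and 0. Hist1h2bk, Hist2h2be, Hist1h1c, Hist1h2bc, Hist1h2ac and Hist1h1d are also in the histone list below, so the counts of both lists overlap. Serpini1, which encodes neuroserpin, an inhibitor of tissue plasminogen activator, had the largest difference of the list, from 7.30 and 7.42 to 11.09 and 11.11, with 11.18 in non-primed 3. Sat1, which encodes the polyamine-degrading enzyme spermidine acetyltransferase, differed by 0.69, from 12.17 and 12.07 to 12.73 and 12.90, with 12.37 in non-primed 3, nearer its own label. Hist1h2ac, an H2A gene, stood at 6.06 and 5.40 against 7.88 and 8.02, with 7.36 in non-primed 3, below both treated libraries. Cdkn1a, which encodes the cell cycle inhibitor p21, lay lower, at 14.43 and 14.57 against 12.77 and 12.72, with 12.49 in non-primed 3. In culture 7 of the 11 rose and Cdkn1a fell (-1.15, limma adjusted p = 0.0285). Of all tested genes 13.4% rose in culture and 16.9% fell, and list counts in culture are to be read against these shares.

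**Figure D2:**
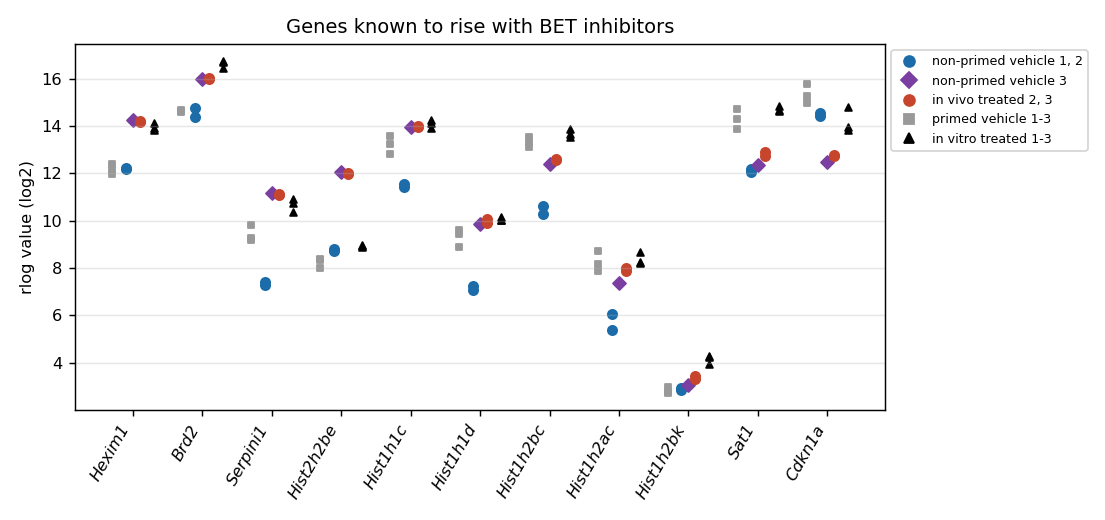
Rlog values (log2, y axis) of the 11 listed genes known to rise with BET inhibitors (x axis), with a point for every pigment-cell-rich, primed vehicle and in vitro treated library. For Hexim1 the treated libraries and non-primed 3 lie between 14.18 and 14.26, above non-primed 1 and 2 at 12.19 and 12.25.

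Most other members of the BET and P-TEFb list did not pass the rule. Brd3, a BET protein gene, differed by 0.07 with overlapping sides. Cdk9, the kinase of P-TEFb, differed by -0.17 with overlapping sides, and Ccnt1, its cyclin, by 0.32. Hexim2, the paralogue of Hexim1, lay lower, at 8.85 and 9.34 against 7.22 and 7.29, with 7.22 in non-primed 3. Mepce and Larp7, which stabilize the RNA that holds P-TEFb inactive, differed by 0.71 and 0.58. In all, 2 of 19 members lay higher and 1 lower by the rule, with a median of 0.18, and with non-primed 3 as labelled none passed.

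Histone transcripts, some of them also counted above among the genes known to rise, were higher as a group. Replication-dependent histone messages normally lack a poly(A) tail, and these libraries were made from polyadenylated RNA. Of 23 histone genes listed, 18 lay higher by the rule, none lower, and all 23 had a positive difference, with a median of 1.69. With non-primed 3 as labelled 12 lay higher. Hist2h3c2, an H3 gene, had the largest difference, from 5.16 and 5.34 to 8.87 and 9.15, with 8.63 in non-primed 3. Hist2h2be, an H2B gene, stood at 8.72 and 8.82, then at 11.99 and 12.02, and at 12.06 in non-primed 3. Hist1h2be, another H2B gene, differed by 3.09, and the linker histone gene Hist1h1c by 2.48, from 11.56 and 11.43, with 13.97 in non-primed 3. The list holds 1 replacement histone, H1f0, which differed by 1.36. In culture 16 of the 23 rose and none fell, with a median of 1.10. Histone genes are near-identical copies of each other, so the values of single members are uncertain.

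Pigment genes did not differ uniformly between the sides. Of 25 melanin synthesis and melanosome genes, 12 lay lower by the rule and none higher, with a median of -0.92, and non-primed 3 had a median difference of -0.88 from non-primed 1 and 2. Counted with non-primed 3 as labelled, 5 lay lower. Among the enzymes, Tyrp1 (ENSMUSG00000005994, chromosome 4, 80834123 to 80851719, + strand), which chose the libraries, stood at 18.62 and 18.37 in non-primed 1 and 2 and at 17.45 and 17.44 in the treated libraries. Dct went from 18.07 and 18.06 to 17.40 and 17.34, and Tyr from 15.36 and 15.03 to 14.24 and 14.30. In non-primed 3 these genes stood at 17.56, 17.51 and 14.39, in each case nearer the treated level. Pmel, which forms the fibrils of the melanosome, had overlapping sides, 17.57 and 17.65 against 17.66 and 17.56.

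The 3 members with the largest differences were Slc24a4, Rab27a and Slc45a2. Slc24a4, a sodium, calcium and potassium exchanger, stood at 9.27 and 9.20 against 5.36 and 5.42, with 5.84 in non-primed 3. Rab27a, the small GTPase that ties melanosomes to the cell cortex, stood at 13.52 and 13.60 against 10.24 and 10.23, with 10.27 in non-primed 3. Slc45a2, a melanosomal transporter whose loss causes albinism, stood at 14.78 and 15.10 against 12.15 and 12.11, with 12.22 in non-primed 3. The 2 sides were apart for each of these genes, and non-primed 3 lay with the treated side. Primed vehicle means of Slc45a2 and Slc24a4 were 3.00 and 2.27, so fibroblast-rich libraries held these transcripts at low level. Oca2, Slc24a5 and Trpm1, also pigment transporters or channels, differed by -2.75, -2.67 and -2.38. Not all transport genes of the list shared this. Atp7a, the copper pump that supplies tyrosinase, differed by 0.41, Myo5a, the motor that Rab27a recruits, by 0.02 with overlapping sides, and Rab38, a GTPase of enzyme delivery, by -0.23. Rab32 (-1.78) and Slc7a11 (-1.56) also lay lower by the rule, and Mlph differed by -0.92. Of the 6 genes with an M-box match 4 lay lower by the rule, and of the 13 without one 5 did.

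Among regulators of the lineage, Mitf stood at 14.88 and 14.97 in non-primed 1 and 2, at 14.32 in both treated libraries and at 14.46 in non-primed 3, a difference of -0.60. Sox10 differed by -0.18, Pax3, which acts upstream of Mitf, by -0.14, and Tfap2a, another lineage factor, by -0.28. Mc1r, the melanocortin receptor that raises melanin synthesis, lay lower, at 13.88 and 14.11 against 12.09 and 11.92. Kit, the receptor for stem cell factor, stood at 9.73 and 10.35 against 8.32 and 8.40. S100b, a calcium-binding protein of neural crest cells, differed by -2.20. Mcam, a melanoma cell adhesion molecule, went the other way, from 13.51 and 13.93 to 15.79 and 15.73, with 15.85 in non-primed 3. By the rule 2 of the 34 regulators lay higher and 11 lower, with a median of -0.33, and with non-primed 3 as labelled 1 lay higher and 2 lower. Schwann and glial cell markers, 6 genes, had means of 10.34 and 9.97 in non-primed 1 and 2, 8.63 and 8.76 in in vivo 2 and 3 and 8.36 in non-primed 3, with 4 of 6 lower by the rule and a median of -1.69. Their part in the regulators' values was not tested. Mitf fell in culture as well, by -1.65 log2 units (limma adjusted p = 0.00251), from a primed vehicle mean of 12.38.

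**Figure D3:**
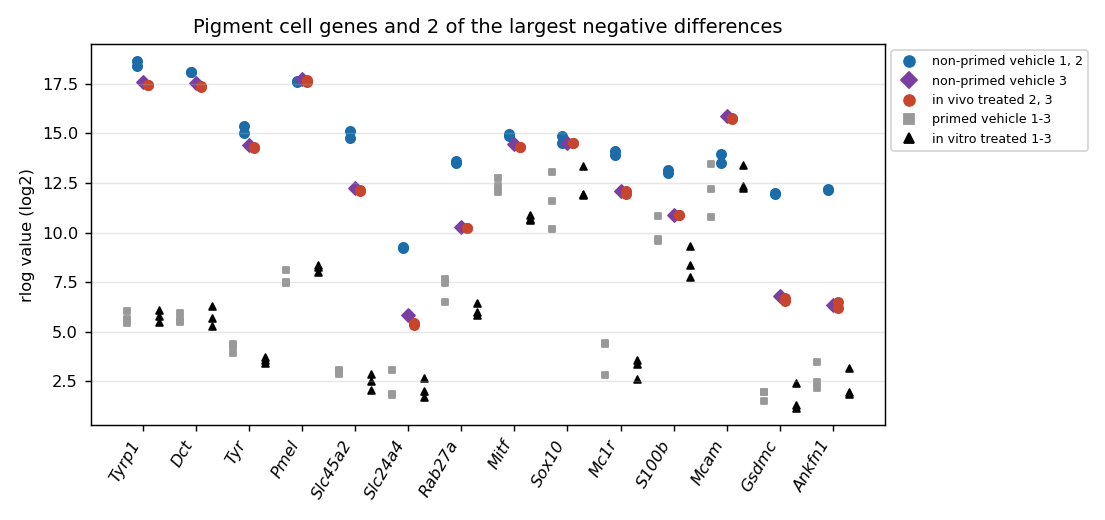
Rlog values (log2, y axis) of 12 pigment cell genes and of Gsdmc and Ankfn1 (x axis), with a point for every pigment-cell-rich, primed vehicle and in vitro treated library. Rab27a lies at 13.52 and 13.60 in non-primed 1 and 2 and between 10.23 and 10.27 in non-primed 3 and the treated libraries, while Pmel lies between 17.56 and 17.71 in all 5.

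The largest negative differences among well-expressed genes (mean of at least 8 over the 4 libraries) included genes that fibroblast-rich libraries hardly held. Ankfn1, which encodes an ankyrin repeat and fibronectin domain protein, stood at 12.20 and 12.16 in non-primed 1 and 2 and at 6.48 and 6.22 in the treated libraries, with 6.34 in non-primed 3 and a primed vehicle mean of 2.70. Gsdmc, a gasdermin gene (chromosome 15, 63775968 to 63808759, - strand), stood at 12.00 and 11.93 against 6.57 and 6.69, with 6.79 in non-primed 3 and a primed vehicle mean of 1.81. Its near-identical gene copies make the value of this member uncertain. The sides were more than 5 log2 units apart for both genes, with non-primed 3 at the treated level. Rab17, a GTPase of epithelial and pigment cell traffic, differed by -4.68, Bfsp2, a lens filament gene, by -4.57, and Gjb2, a gap junction gene, by -4.43. Tnfrsf9, the receptor 4-1BB, stood at 12.09 and 12.26 against 7.59 and 7.50. Its primed vehicle mean was 11.03, and it fell by -2.65 in culture (limma adjusted p = 0.0163).

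Among the largest positive differences, Strip2, a subunit of a phosphatase and kinase complex, stood at 6.11 and 5.72 against 10.34 and 10.39, with 10.44 in non-primed 3. It rose in culture by 3.47 (limma adjusted p = 0.00204). Trim36, a ubiquitin ligase, differed by 3.81, and Cadm2, a cell adhesion molecule, by 3.41. Peg10, an imprinted gene derived from a retrotransposon, stood at 11.55 and 12.18 against 14.98 and 15.06, with 15.14 in non-primed 3, and Dgat2, a triglyceride synthesis enzyme, differed by 3.22. Peg10 rose by 2.69 in culture (limma adjusted p = 0.00341).

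Interferon-stimulated genes were lower in the treated libraries almost throughout the list. By the rule 57 of 62 lay lower in the treated libraries and 1 higher, with a median of -2.62, and non-primed 3 had a median of -2.74 against non-primed 1 and 2. Counted with non-primed 3 as labelled, 0 lay higher and 12 lower. Oas2, an antiviral oligoadenylate synthetase, stood at 8.76 and 9.09 against 3.01 and 2.50, with 3.26 in non-primed 3. Xaf1, a pro-apoptotic gene, stood at 10.28 and 10.74 against 5.59 and 6.19, with 5.60 in non-primed 3. Rsad2 stood at 12.67 and 12.80 against 8.56 and 8.55, with 8.54 in non-primed 3, and Ifi203 differed by -3.55. For each of these genes non-primed 1 and 2 were the high libraries and the other 3 the low ones. Among genes with the element Ifit1bl1 alone had a positive difference, of 2.32. Of the 22 genes with the interferon element 20 lay lower by the rule, and of the 26 without it 23 did.

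Among transcription factors of the interferon response, Irf9 stood at 11.12 and 11.51 against 8.90 and 8.89, with 8.72 in non-primed 3. Irf7, which amplifies type I interferon, differed by -2.46, while Stat2 differed by -0.29 with overlapping sides. Il10rb, a shared receptor chain of the IL-10 and lambda interferon receptors, differed by -1.47. In culture 54 of the 62 interferon-stimulated genes fell and 1 rose, with a median of -2.60. Mean levels of the list were 9.62 and 10.07 in non-primed 1 and 2, 7.27 and 7.30 in in vivo 2 and 3, and 7.13 in non-primed 3. Fibroblast marker means differed in the same direction (10.36 and 11.09 against 9.51 and 9.87), and all but 3 of the 62 genes were higher in primed vehicle than in the pigment-cell-rich libraries. The part of that difference in these values was not tested. MHC class I antigen presentation, which interferon raises, lay lower in 13 of 24 genes and higher in none (median -1.26), and with non-primed 3 as labelled in 0 of 24. Tap2, a peptide transporter subunit, went from 9.01 and 9.00 to 6.44 and 6.26, and Cd274, the checkpoint ligand PD-L1, from 10.52 and 10.13 to 7.91 and 8.02.

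**Figure D4:**
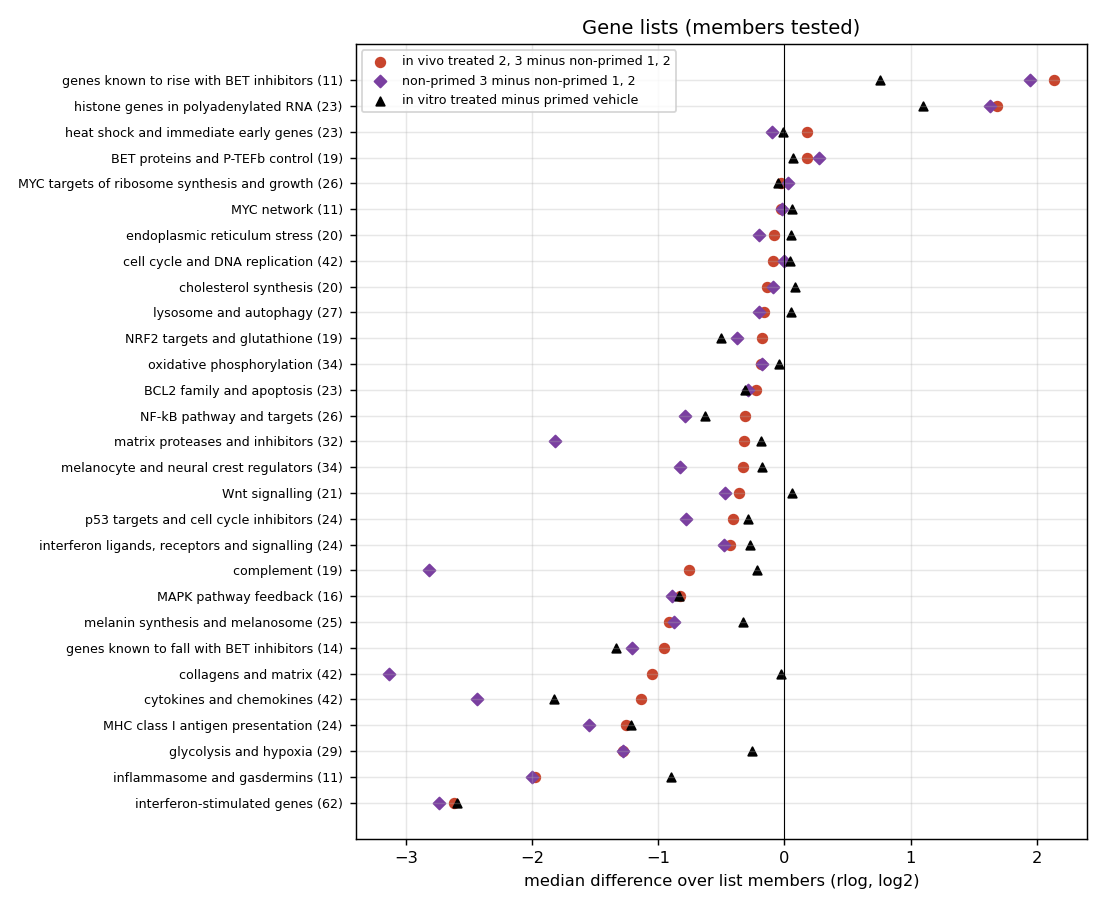
Median difference in rlog value (log2, x axis) over the tested members of each gene list (y axis, number tested in brackets), for in vivo 2 and 3 minus non-primed 1 and 2 (circles), non-primed 3 minus non-primed 1 and 2 (diamonds) and in vitro treated minus primed vehicle (triangles). Interferon-stimulated genes lie lowest for the circles at -2.62 and genes known to rise with BET inhibitors highest at 2.14. Circles and diamonds share the libraries non-primed 1 and 2.

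Cytokine and chemokine genes lay lower in 22 of 42 cases and higher in 1, from a low starting level. Taken with non-primed 3 as labelled, 2 lay lower and 2 higher. Il6 stood at 7.49 and 9.12 in non-primed 1 and 2, 5.18 and 5.36 in the treated libraries and 3.94 in non-primed 3, against a primed vehicle mean of 14.98. Cxcl5, a neutrophil-attracting chemokine, stood at 11.23 and 11.67 against 7.94 and 8.69, with 6.06 in non-primed 3. Il1b was near the bottom of the scale in all 5, at 1.61 and 2.12, 1.91 and 1.23, and 1.05, whereas its primed vehicle mean was 10.52 and it fell by -7.97 in culture (limma adjusted p = 0.00234). Nlrp3, which encodes the inflammasome sensor activated by urate crystals, differed by -1.19 from 3.71 and 4.01. Cx3cl1, a membrane-bound chemokine, lay higher, from 7.21 and 7.94 to 9.31 and 9.12, while in culture it fell by -2.19 (limma adjusted p = 0.00479). The median of the list was -1.14 here and -2.44 for non-primed 3 against non-primed 1 and 2. The difference between the list's values here and in culture was not tested.

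Matrix genes that passed the rule mostly lay lower in the comparison of 2 with 2, and a few lay higher. Col1a1, the main collagen chain, stood at 12.87 and 14.26 in non-primed 1 and 2, 11.80 and 12.36 in in vivo 2 and 3 and 9.00 in non-primed 3, against 18.23 in primed vehicle. Its difference of -1.49 turned to 0.03 with non-primed 3 as labelled. Collagens and matrix lay lower in 22 of 42 genes and higher in 1, with a median of -1.05, and with non-primed 3 as labelled 1 lay higher and 0 lower. Sparc, which encodes a collagen-binding protein, was higher in the treated libraries, at 16.43 and 16.53 against 17.12 and 17.09, with 17.11 in non-primed 3. Fmod, which encodes the collagen-binding fibromodulin, was the member that passed the rule upwards, at 9.32 and 9.62 against 11.00 and 10.67, with 4.70 in non-primed 3. In culture the same list had a median of -0.03. Adam12, a membrane protease, stood at 9.50 and 10.57 against 5.69 and 5.50, with 5.37 in non-primed 3, and fell by -2.94 in culture (limma adjusted p = 0.00204). Fibroblast markers themselves lay lower in 7 of 12 cases, with a median of -1.37. The part of fibroblast transcripts in these differences was not tested.

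Glycolysis and hypoxia genes lay lower in 21 of 29 cases and higher in none, with a median of -1.28 both for the treated libraries and for non-primed 3. With the libraries centred on their medians 16 lay lower (median -1.14), and with non-primed 3 as labelled 3 did. Slc2a3, a glucose transporter, stood at 10.84 and 10.64 against 7.88 and 7.77, with 7.86 in non-primed 3. Aldoc, a glycolytic aldolase, stood at 11.96 and 11.92 against 9.20 in both treated libraries, with 9.14 in non-primed 3. Ldha, lactate dehydrogenase, went from 17.64 and 17.71 to 16.27 and 16.23, and Car9, a hypoxia-induced carbonic anhydrase, from 12.16 and 11.38 to 9.18 and 9.15. The low libraries were again in vivo 2 and 3 together with non-primed 3. In culture 1 of the 29 genes rose and 1 fell, with a median of -0.26, and the difference between both settings was not tested. Trib3 and Chac1, targets of the amino acid and endoplasmic reticulum stress response, differed by -3.72 and -1.85. Of the 20 genes of that list 6 lay lower by the rule and none higher, with or without centring. With non-primed 3 as labelled none of the list passed. Its median was -0.08 and turned to 0.06 with centred libraries.

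Of 42 cell cycle and replication genes 1 lay lower by the rule, Ccnd1, and none higher, with a median of -0.09 that was 0.05 with centred libraries. Ccnd1, which encodes cyclin D1, stood at 13.62 and 14.29 against 11.81 and 12.03, with 11.04 in non-primed 3. Mki67, the proliferation marker, stood at 15.33 and 15.26 against 15.36 and 15.43, with 15.60 in non-primed 3. Myc, which BET inhibitors lower in many blood cancers, stood at 11.37 and 11.19 against 10.49 in both treated libraries, with 10.27 in non-primed 3, a difference of -0.79. In culture Myc differed by 0.06 (limma adjusted p = 0.793). None of the 11 MYC network genes passed the rule, and of 26 MYC targets Ldha alone did. With non-primed 3 as labelled no gene of the cell cycle and both MYC lists passed. Bcl2l11, which encodes the pro-apoptotic protein BIM, lay higher, from 10.16 and 9.48 to 11.58 and 11.61, with 11.63 in non-primed 3, and rose in culture by 1.58 (limma adjusted p = 0.00457). Of 23 BCL2 family and apoptosis genes it was the 1 that lay higher by the rule, and 5 lay lower, with a median of -0.23. Taken with non-primed 3 as labelled, none of that list passed.

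Inflammasome and gasdermin genes lay lower in 8 of 11 cases and higher in none, with a median of -1.98. Casp4, which encodes the inflammatory caspase-11, stood at 9.10 and 9.29 against 6.37 and 6.83, with 4.94 in non-primed 3. Pstpip1, an adaptor that binds pyrin, stood at 8.35 and 8.54 against 5.77 and 6.20, with 5.36 in non-primed 3. Both genes fell in culture, Casp4 by -1.34 (limma adjusted p = 0.00248) and Pstpip1 by -2.17 (limma adjusted p = 0.00204). Non-primed 3 lay below the treated libraries for these genes, as it did for fibroblast markers. Of 14 genes known to fall with BET inhibitors 6 lay lower and none higher (median -0.96), and in culture 10 of them fell and 1 rose. With non-primed 3 as labelled the lower counts were 2 of 11 for inflammasome and gasdermin genes and 1 of 14 for genes known to fall. For complement 4 of 19 genes lay lower and none higher, whereas with non-primed 3 as labelled none lay lower and 3 higher. C2, a protease of the classical pathway, stood at 11.31 and 11.22 against 8.99 and 9.00, with 8.96 in non-primed 3.

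Several signalling and stress lists held genes that passed the rule, as did 6.84% of all tested genes upwards and 12.2% downwards. Of 23 heat shock and immediate early genes 4 lay higher and 2 lower (2 and 0 with non-primed 3 as labelled). Of 19 listed NRF2 targets and glutathione genes 5 lay lower and 1 higher (0 and 1 with non-primed 3 as labelled). Among 16 MAPK feedback genes 3 lay lower, and none did with non-primed 3 as labelled. Dusp4, a phosphatase that turns off ERK, stood at 12.69 and 12.75 against 10.90 and 10.97, with 10.80 in non-primed 3. Immediate early genes differed between non-primed 1 and 2 themselves, Nr4a1, an orphan nuclear receptor, standing at 13.54 and 11.52 and Egr2, a growth response factor, at 10.45 and 6.92. In the treated libraries they stood at 10.42 and 10.30, and at 6.67 and 6.91. Jund, an AP-1 subunit, lay higher, at 13.05 and 12.83 against 14.29 and 14.33, with 14.13 in non-primed 3, and it rose in culture by 0.82 (limma adjusted p = 0.0354). Gsta1, a glutathione transferase, stood at 9.57 and 9.35 against 5.49 and 5.84, with 5.80 in non-primed 3. Ppargc1a, the coactivator of mitochondrial biogenesis that MITF drives in melanocytes, stood at 12.51 and 12.26 against 10.86 and 10.85, with 10.97 in non-primed 3. Oxidative phosphorylation as a list had a median of -0.19, with 2 of 34 genes lower, and 1 with non-primed 3 as labelled.

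The culture experiment gives a set of responsive genes chosen without any pigment-cell-rich library. In vitro treated against primed vehicle libraries, 4983 of 16459 genes (30.3%) changed, 2207 higher (13.4%) and 2776 lower (16.9%). With the libraries centred on their medians 57.7% of the calls were higher, in place of 44.3%. Of the 2207 genes that rose in culture, 1945 (88.1%) lay on the higher side in the pigment-cell-rich libraries, where 48.8% of all tested genes did. Of the 2776 that fell, 2349 (84.6%) lay on the lower side, where 51.2% of all did. By the rule of no overlap and 1 log2 unit, 470 of the rising genes (21.3%) lay higher against 6.84% of all genes, and 1002 of the falling genes (36.1%) lay lower against 12.2%. In the opposite direction there were 22 and 43. With non-primed 3 as labelled, 149 and 155 lay in the same direction by that rule, where 3.4% of all genes lay higher and 1.95% lower. Taken alone against non-primed 1 and 2, non-primed 3 had the direction of culture in 1842 of the rising genes (83.5%) and 2502 of the falling ones (90.1%), where 44% of all genes were higher in it and 56% lower. That library was set aside for its likeness to the treated side, so its shares are in part set by the choice. They also rest on the same non-primed 1 and 2 as the comparison of 2 with 2. Across the 16459 genes the difference of 2 against 2 and the difference in culture had a Pearson correlation of 0.56 and a Spearman correlation of 0.55. Genes are not independent replicates, and the 2 comparisons share no library but come from the same table.

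The same counts were taken in genes that pigment-cell-rich libraries expressed at least as highly as primed vehicle, a division added after the data were seen. There 501 genes fell in culture, of which 448 (89.4%) lay on the lower side and 195 (38.9%) passed the rule, against 8.18% of all 7901 such genes. Of 1589 that rose, 1413 (88.9%) lay on the higher side and 302 (19%) passed, against 7.13%. Only 59 of the falling and 48 of the rising genes passed with non-primed 3 as labelled. The matching share of all such genes was not counted. Examples within this division are Strip2 (4.45), Hist1h3g (4.39) and Ccno (3.92), a cyclin of multiciliated cells, which rose in culture and lay higher here. Rasd2, a small GTPase (-4.89), and Rab17 fell and lay lower. By the rule 9 of the rising and 3 of the falling genes of the division lay in the opposite direction. Extl1 was an example, with a difference of -2.03 while it rose in culture by 1.61 (limma adjusted p = 0.0163). Outside the division, in genes that were higher in primed vehicle, Ankrd35 (4.79) rose in culture and lay higher, and Ip6k3, an inositol phosphate kinase (-4.75), fell and lay lower. Also outside it, Fgf9, a growth factor, lay 3.04 higher while it fell in culture by -1.87 (limma adjusted p = 0.0169). Lrrn4cl differed by -2.22 while it rose in culture by 1.10 (limma adjusted p = 0.00564).

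**Figure D5:**
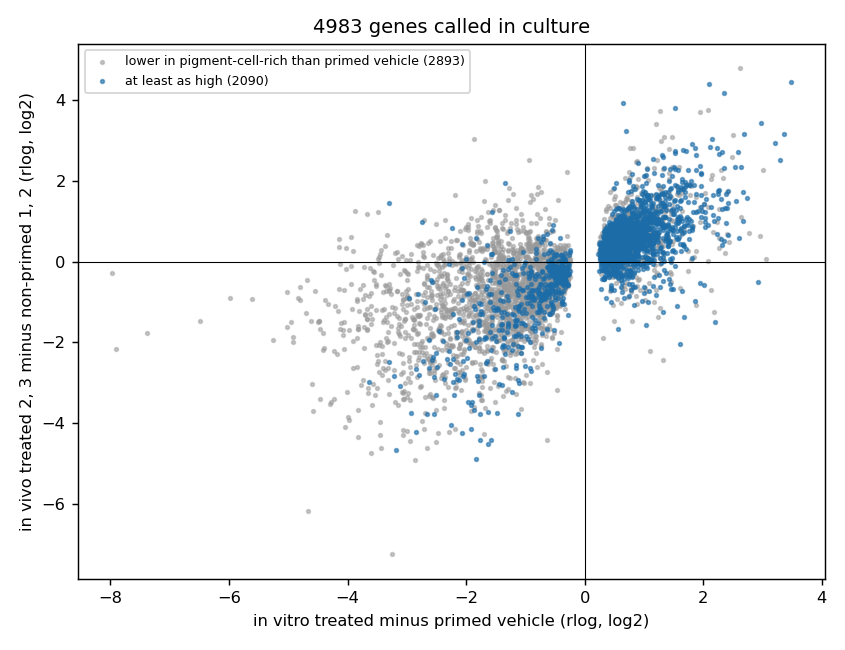
Difference in rlog value (log2) of 4983 genes called in culture, in vitro treated minus primed vehicle (x axis), against in vivo 2 and 3 minus non-primed 1 and 2 (y axis). Each point is a gene, in blue where the pigment-cell-rich libraries expressed it at least as highly as primed vehicle. Most points lie in the lower left and upper right corners, 84.6% of the falling and 88.1% of the rising genes.

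A smaller set of genes set the treated libraries apart from all 3 non-primed ones, and most of the higher ones were genes of fibroblast-rich libraries. Of the 560 that lay higher, 452 (80.7%) were higher in primed vehicle than in the pigment-cell-rich libraries, against 52% of all genes. The 5 smallest p-values of the fit as labelled were those of Hist1h4m, Ctnna2, Kcng1, Bex2 and Pam. All but Pam were near the bottom of the scale, at 2.20 or below in the 3 non-primed libraries and at 2.95 to 4.40 in the treated ones. Their means over the 5 libraries were below 3, so they passed the filter only through the other libraries of the series. Hist1h4m, an H4 histone gene, stood at 1.45, 1.43 and 1.30 in non-primed 1, 2 and 3 and at 3.84 and 4.20 in the treated libraries, a difference of 2.63 ± 0.33 (SE, limma unadjusted p = 0.000407, adjusted p = 0.591). Pam, which amidates peptide hormones, stood at 12.69, 12.62 and 12.78 against 13.23 and 13.35, with a primed vehicle mean of 15.57. Scx, which encodes the tendon factor scleraxis, stood at 5.58, 5.65 and 3.62 against 8.14 and 8.13, with a primed vehicle mean of 10.26. In these genes non-primed 3 lay on the side of its label, and none passed after adjustment. Genes apart from all 3, or with a small p in that fit, have it on that side by the way they were picked. Non-primed 3 was also lowest in fibroblast markers, with a mean of 7.43, and the part of this in the 560 genes was not tested.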

How the data were processed

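RNA of cultured paw cells was sequenced as polyadenylated RNA in 12 libraries. The tools named in the submitters' processing notes are DESeq2 1.24.0, Subread 1.6.1 with featureCounts, cutadapt 1.18 and STAR 2.6.1c, on build GRCm38. No source used here gives their settings. The authors deposited regularized log2 (rlog) values per gene. These shrink differences of low genes, hold no counts, and so leave depth per library unknown.

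Genes with a mean of at least 3 over the 12 libraries (16459) were tested with limma 3.58.1 (R 4.3.3, trended variance, two-sided, Benjamini-Hochberg adjusted p under 0.05), 2 treated against 3 non-primed libraries and, separately, 3 in vitro treated against 3 primed vehicle libraries. The comparison of 2 with 2 counts genes that do not overlap and differ by at least 1 log2 unit. The scripts were tested on simulated data. Alternatives were centring on library medians, quantile scaling, other thresholds and filters, all 12 libraries in the fit, a replicate block and leaving out each library.

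The libraries, gene lists and tests were chosen with earlier results of these data known. Genes named are the marker and BET-responsive genes, the 5 smallest p-values, the 8 largest differences each way among genes with a mean of at least 8, up to 3 per list, and the genes most alike or opposite in culture. Brd3, Ccnt1, Cdk9, Mepce, Larp7, H1f0, Kit, Pax3, Tfap2a, Oca2, Slc24a5, Trpm1, Atp7a, Myo5a, Rab38, Rab32, Slc7a11, Mlph, Stat2, Cx3cl1, Rsad2, Ifi203 and Ifit1bl1 were added after their values were seen. Some genes under this rule are not reported here.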

Additional observations from a re-analysis of the deposited data

How the results depend on the processing

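With 2 to 3 pooled cultures on a side and no counts, precision rests on few libraries. The count of genes called with the libraries as labelled ranged from 0 to 6158 when a library was left out (0 to 2767 higher and 0 to 3391 lower), and only the fit without non-primed 3 was above 0. The deviations of same-numbered libraries from their group means had correlations of -0.15 and -0.16 for treated and non-primed libraries and of -0.27, 0.16 and -0.03 in culture. The labels do not say whether a shared number marks a shared source, and pairing was not assumed. A replicate block gave 0 calls here and 3765 in culture. The count in culture was 2638 with all 12 libraries in the fit (1228 higher, 1410 lower). It ranged from 2520 to 4612 with a library left out (973 to 2053 higher, 1547 to 2559 lower), with 2771 without in vitro 1 and 2520 without in vitro 2. Comparing 2 with 2, 3066 genes lay higher and 3760 lower past 0.5 log2 units, 152 and 630 past 2, and 560 and 321 with non-primed 3 as labelled. Leaving out a library gave 1098 to 1320 higher and 2003 to 2230 lower. Genes that rose in culture and lay higher numbered 1118 past 0.5, 84 past 2, 719 after quantile scaling and 149 with non-primed 3 as labelled (447 to 501 with a library left out). For genes that fell and lay lower the values were 1564 past 0.5, 357 past 2 and 155 with non-primed 3 as labelled (947 to 1112 with a library left out). 

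Some genes changed sign in the fit as labelled. With a library left out, the difference ranged from -0.08 to 0.01 for Pmel, from -0.36 to 0.32 for Il1b, from -0.07 to 0.1 for Mki67, from -0.12 to 2.17 for Xist, from -0.6 to 2.12 for Cdkn2a, from -1.49 to 1.14 for Col1a1, from -1.73 to 0.01 for Cd180, from -1.56 to 0.1 for C4b, from -2.86 to 0.32 for Col6a2, from -2.86 to 0.41 for Col3a1, from -2.46 to 0.43 for Mmp12, from -1.37 to 0.46 for Eda2r, from -1.89 to 0.19 for Egr2, from -1.95 to 0.19 for Gsta4 and from -1.62 to 0.08 for Dkk2. With centred libraries Pmel stood at 0.05, Il1b at 0.06 and Mki67 at 0.08, and with quantile scaling Pmel at 0.17, Mki67 at 0.05 and Col1a1 at -0.15. The replicate block gave Cd180 0.01, Eda2r 0.38 and Egr2 0.19. Comparing 2 with 2, Col1a1 turned to 0.03 with non-primed 3 as labelled. The cause was not tested.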
